A study of Homo sapiens with 4 samples.

Results

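The 10 genes described here encode amino acid transporters of the plasma membrane: SLC3A2, SLC7A5, SLC7A11, SLC7A1, SLC1A4, SLC1A5, SLC38A1, SLC38A2, SLC6A9 and SLC43A1. They were taken by symbol, and all 10 of them were present among the 56832 genes of the deposited table. RNA was sequenced from A375 cells, a long-established line of human melanoma origin whose genotype is labelled WT. Cells grown in DMEM with serum received either 1 mM octanoate, a medium-chain saturated fatty acid, or isopropanol alone as the vehicle. Exposure lasted 48 h in both groups and 2 libraries were sequenced per group. The design text gives the search for genes raised by the treatment as the aim. The labels do not say whether the 2 libraries of a group came from separate cultures, so p-values measure only the spread between these libraries. In limma, the main test here, that spread was mostly pooled over genes, with 21.2 prior against 2 residual degrees of freedom.

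Amino acids cross the cell membrane on carriers of several families. Some carriers exchange one amino acid for another, some use the sodium gradient to concentrate their substrate, and some let it pass down its own gradient. LAT1 (SLC7A5) and xCT (SLC7A11) are light chains that reach the cell surface bound to the heavy chain 4F2hc, also called CD98 (SLC3A2). LAT1 brings in leucine and other large neutral amino acids, which activate the kinase complex mTORC1, and xCT brings in cystine for glutathione in exchange for glutamate. When amino acids run short or the mitochondria or endoplasmic reticulum are stressed, the kinases of eIF2alpha raise translation of the transcription factor ATF4, and many transporter genes are known ATF4 targets. Proliferating melanoma cells take up large amounts of glutamine and leucine.

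Each deposited value is a read count divided by 1 factor per library, called a normalised count here. The reads recovered from it numbered between 67785956 and 78005035 per library. Chi-square per degree of freedom over the genes' reads came to 4.77 for the vehicle pair, 6.50 for the octanoate pair and 49.4 to 54.3 for pairs from different groups, so no library was a copy of another. Of 8 melanoma markers, SOX10 was abundant at 34072 to 41363 normalised counts. AXL stood at 23437 and 22061 in vehicle and at 30450 and 30298 in octanoate (log2 difference 0.42, limma adjusted p 4.33e-06). MITF stood at 3533 and 3330 in vehicle and at 2414 and 2511 in octanoate (-0.48, limma adjusted p 2.33e-06), and S100B at 4234 and 3741 in vehicle and at 1917 and 1746 in octanoate (-1.12, 9.15e-12). PMEL (65.8 to 98.2), MLANA (34.9 to 52.02), DCT (10.6 to 30.03) and TYR (1.93 to 3.93) were low. The 4 leukocyte markers summed to between 25.03 and 35.3 over all 4 libraries. The 4 fibroblast markers summed to 2307 and 2370 in vehicle and to 2035 and 2154 in octanoate, with COL1A1 called lower (-0.69, limma adjusted p 3.63e-05). The 4 keratinocyte markers summed to 950 and 1124 in vehicle and to 221 and 269 in octanoate, nearly all of it KRT14, with KRT1 at 0 in all 4 libraries. The 3 endothelial markers summed to 201 and 207 in vehicle and to 338 and 347 in octanoate. The part of these markers in the results on transporters was not tested.

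Transporter RNA was higher under octanoate. Of the 10 genes, 8 rose at an adjusted p under 0.05 in limma (two-sided, Benjamini-Hochberg adjustment over 20250 genes) and 0 fell, where 16.2% of all tested genes rose and 13.7% fell. Of the genes whose mean reached 500, as it did for all 10, 19.2% rose. The rises were small, between 0.16 and 0.49 on the log2(normalised count + 1) scale. The median log2 difference of the 10 genes was 0.28, beside 0.01 for all tested genes. Both octanoate libraries lay above both vehicle libraries for 9 of the 10 genes, where 32.6% of tested genes showed this. Together the 10 genes took 0.238% and 0.240% of the normalised counts of the vehicle libraries, against 0.285% and 0.292% under octanoate. SLC38A2 and SLC6A9 did not pass the threshold. At an unadjusted p under 0.05, 9 of the 10 were higher and 0 lower. edgeR and DESeq2 on the recovered reads each called 9 higher and 0 lower, where they called 17.1% and 13.8% of tested genes higher and 14.9% and 13.7% lower. When the variance prior of limma was fitted without a trend on intensity, 0 of the 10 had an adjusted p under 0.05 and 5 had an unadjusted p under 0.05. That fit called 1625 of the 20250 genes by adjusted p, 1095 of them higher. For both counts at an unadjusted p, the share of all tested genes is not given here. Without the filter on low counts 5 of the 10 were called higher, where 1597 of 43449 genes were called higher. Some calls were also lost with 1 library left out, as given below. In those fits the median log2 difference of the 10 genes lay between 0.26 and 0.31.

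**Figure D1:**
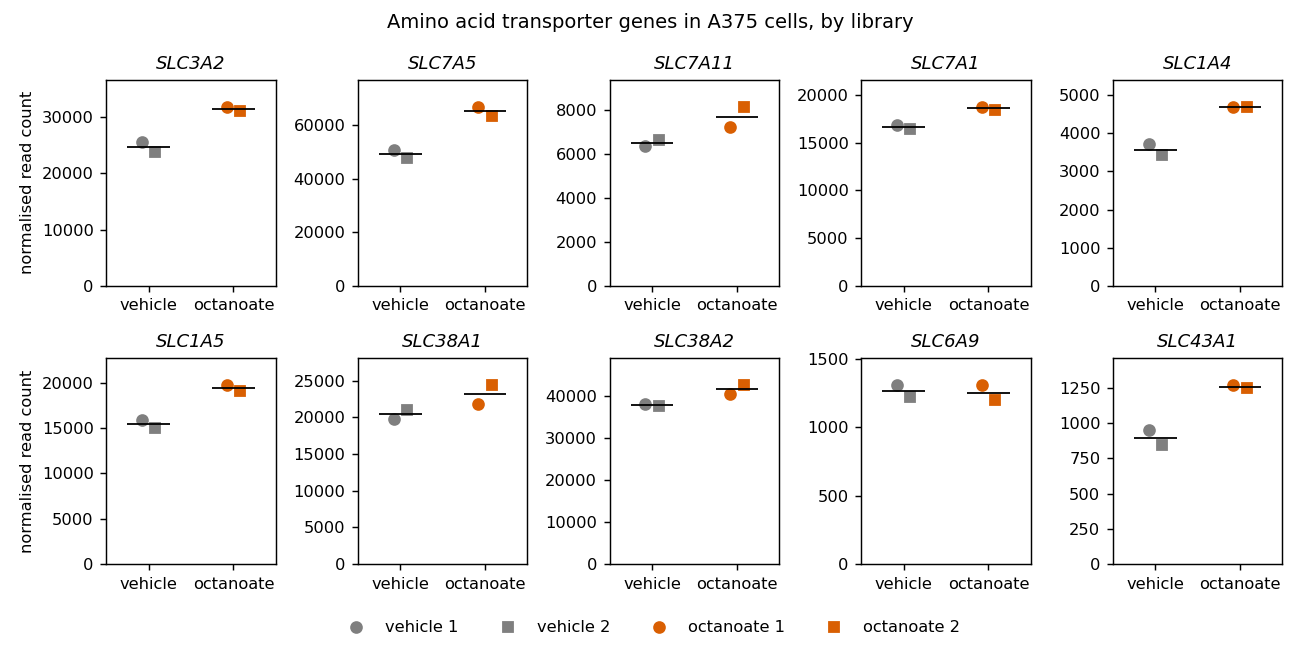
Normalised read count (vertical axes, from 0) of each transporter gene in the 2 vehicle (grey) and 2 octanoate (orange) libraries; circles are replicate 1, squares are replicate 2 and lines are group means. The groups are apart for every gene except SLC6A9, whose 4 values lie between 1199 and 1312.

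Promoter sequence was examined because most of these genes moved in the same direction. RefSeq (GRCh38.p14) gave 16 windows from 250 bases before to 50 bases after a start site for 9 of the 10 genes, all but SLC7A11. Both strands were searched for TGATGNAA, the core of the CCAAT-enhancer-binding protein and ATF response element to which ATF4 dimers bind, for TGACNNNGC, the core of the antioxidant response element bound by NRF2, and for the E-box CACGTG bound by MYC and its relatives. No match of one motif overlapped a match of another in these windows. TGATGNAA was in 5 of the 16 windows (5 genes), and in 3.62% of all 35116 windows. TGACNNNGC was in 4 of the 16 and in 13.3% of all windows, and CACGTG in 3 of the 16 and in 7.26% of all windows. A match of letters is not evidence of binding. The 5 stretches below, each ending 20 bases after a start site, are examples of matches in genes that rose, with each match in capitals. SLC1A5 and SLC38A1 also rose and hold matches but are not shown.
SLC3A2 (chr11:62881564-62881718, plus strand): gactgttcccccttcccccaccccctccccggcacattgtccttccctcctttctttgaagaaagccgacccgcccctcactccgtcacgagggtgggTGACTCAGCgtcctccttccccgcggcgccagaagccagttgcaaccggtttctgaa
SLC7A5 (chr16:87869488-87869642, minus strand): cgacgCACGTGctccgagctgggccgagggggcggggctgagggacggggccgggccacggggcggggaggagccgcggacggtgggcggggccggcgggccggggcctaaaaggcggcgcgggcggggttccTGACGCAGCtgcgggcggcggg
SLC7A1 (chr13:29595669-29595823, minus strand): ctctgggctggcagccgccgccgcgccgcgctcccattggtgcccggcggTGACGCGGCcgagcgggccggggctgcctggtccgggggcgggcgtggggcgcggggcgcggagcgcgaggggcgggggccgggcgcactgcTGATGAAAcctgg
SLC1A4 (chr2:64989264-64989418, plus strand): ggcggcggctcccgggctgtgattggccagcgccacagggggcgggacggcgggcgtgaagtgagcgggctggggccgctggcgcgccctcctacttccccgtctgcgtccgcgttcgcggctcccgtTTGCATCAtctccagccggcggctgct
SLC43A1 (chr11:57515683-57515837, minus strand): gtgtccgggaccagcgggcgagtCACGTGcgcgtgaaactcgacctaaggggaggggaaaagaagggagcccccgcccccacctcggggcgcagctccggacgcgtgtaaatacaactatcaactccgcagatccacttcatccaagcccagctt
The antioxidant response element core was found in SLC3A2, SLC7A5, SLC7A1 and SLC1A5, and the E-box in SLC7A5, SLC43A1 and SLC1A5. SLC7A1 and SLC1A4 have the ATF response element core beside the start, SLC1A4 on the reverse strand. SLC3A2 has that core 38 bases into the transcript, beyond the stretch shown, and SLC1A5 and SLC38A1 have it in 1 window each. The windows that hold the annotated upstream ends of SLC3A2, SLC1A4 and SLC1A5 had no match, so the matches of these genes lie at other start sites. SLC38A2 and SLC6A9 had no match of the 3 motifs, which says only that these letters are not in these windows.

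The heavy chain and its light chains rose. SLC3A2 (ENSG00000168003.16, chromosome 11, 62856102 to 62888875 on GRCh38, plus strand) encodes the glycoprotein that carries LAT1 and xCT to the membrane. It stood at 25670 and 23724 normalised counts in vehicle and at 31898 and 31054 in octanoate. The octanoate libraries were both above the vehicle libraries, with a log2 difference of 0.35 (SE 0.06, adjusted p 5.96e-05 in limma).

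SLC7A5 (ENSG00000103257.8, chromosome 16, 87830023 to 87869488, minus strand), the leucine-carrying light chain LAT1, stood at 50814 and 47730 in vehicle and at 66870 and 63290 in octanoate. The groups did not overlap, and the mean rose by 32.1%, from 49272 ± 2181 to 65080 ± 2531 (SD, n = 2 each). The log2 difference was 0.40 (SE 0.06, adjusted p 1.93e-05 in limma). SLC7A5 shares 537 bases at 96.6% identity with the pseudogene SLC7A5P1, 536 bases with SLC7A5P2 and 604 bases with SMG1P3, so reads of these copies could be split or lost. SLC7A5P2 was listed at 0 in all 4 libraries.

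SLC7A11 (ENSG00000151012.13, chromosome 4, 138164097 to 138242349, minus strand), the cystine-glutamate exchanger xCT, changed less. It stood at 6374 and 6610 normalised counts in vehicle and at 7228 and 8146 in octanoate. The octanoate libraries were both higher but differed from each other by more than the vehicle libraries did. The log2 difference was 0.24 (SE 0.06, adjusted p 0.00447 in limma). It was 0.16 without octanoate 2 and 0.22 without vehicle 1, and the call was lost in both fits. Why it was lost was not tested.

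The balance between the chains was followed as a ratio within each library, which does not depend on how libraries are scaled. Per kilobase of annotated exon, SLC7A5 stood at 2.16 and 2.20 times SLC3A2 in vehicle and at 2.29 and 2.22 times in octanoate. The log2 ratio was 0.05 higher in octanoate, with groups that did not overlap (exact two-sided permutation p 0.333, the smallest that 2 libraries against 2 allow). SLC7A11 stood at 0.133 and 0.150 times SLC3A2 per kilobase in vehicle and at 0.122 and 0.141 times in octanoate. Those groups overlapped, and the log2 ratio was -0.11 from vehicle to octanoate (exact permutation p 0.667).

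SLC7A1 (ENSG00000139514.12, chromosome 13, 29509410 to 29595688, minus strand) encodes CAT-1, the main carrier of arginine and lysine in many cell types. It stood at 16861 and 16488 normalised counts in vehicle and at 18806 and 18482 in octanoate. The groups did not overlap and each had a narrow spread, with a log2 difference of 0.16 (SE 0.06, adjusted p 0.0307 in limma). This call was lost without any 1 of the 4 libraries, with limma adjusted p-values from 0.0613 (without vehicle 1) to 0.180 (without octanoate 1) and log2 differences from 0.14 to 0.18. In these fits the lone library of a group is assumed to vary like those of the other group.

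The sodium-dependent exchangers of small neutral amino acids rose. SLC1A4 (ENSG00000115902.10, chromosome 2, 64988477 to 65023865, plus strand), the alanine, serine and cysteine carrier ASCT1, stood at 3716 and 3425 normalised counts in vehicle and at 4695 and 4704 in octanoate. The octanoate libraries were nearly equal and above both vehicle libraries, with a log2 difference of 0.40 (SE 0.06, adjusted p 2.00e-05 in limma). SLC1A5 (ENSG00000105281.12, chromosome 19, 46774883 to 46788594, minus strand), the glutamine carrier ASCT2, stood at 15916 and 14974 in vehicle and at 19747 and 19027 in octanoate. The groups did not overlap, with a log2 difference of 0.33 (SE 0.06, adjusted p 9.71e-05 in limma).

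These paralogs differ in level more than in response. Per kilobase, SLC1A4 stood at 0.112 and 0.110 times SLC1A5 in vehicle and at 0.114 and 0.119 times in octanoate. The groups did not overlap, but the log2 ratio was only 0.07 higher in octanoate (exact permutation p 0.333).

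The system A carriers, which use sodium to concentrate glutamine and alanine for the exchangers, had small differences, and SLC38A1 alone of the pair passed the threshold. SLC38A1 (ENSG00000111371.15, chromosome 12, 46183063 to 46270017, minus strand), SNAT1, stood at 19829 and 21037 normalised counts in vehicle and at 21877 and 24466 in octanoate. Octanoate 1 lay above vehicle 2 by less than the libraries of either group differed, and the log2 difference was 0.18 (SE 0.06, adjusted p 0.0299 in limma). It was 0.10 without octanoate 2 (limma adjusted p 0.436) and 0.14 without vehicle 1 (limma adjusted p 0.197).

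SLC38A2 (ENSG00000134294.13, chromosome 12, 46358189 to 46372867, minus strand), SNAT2, is the system A carrier known to be induced by amino acid starvation. It stood at 38094 and 37477 normalised counts in vehicle and at 40427 and 42542 in octanoate. The groups did not overlap, but the log2 difference of 0.13 (SE 0.06, 95% interval 0.01 to 0.25) had a limma adjusted p of 0.0870. Its adjusted p was 0.0456 with edgeR, 0.0442 with DESeq2 and 0.0448 in the authors' deposited table, so the gene lies at the threshold. Per kilobase, SLC38A1 stood at 0.343 and 0.370 times SLC38A2 in vehicle and at 0.357 and 0.379 times in octanoate, with groups that overlapped (exact permutation p 0.667).

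SLC6A9 (ENSG00000196517.11, chromosome 1, 43991500 to 44031467, minus strand), the sodium- and chloride-dependent glycine carrier GlyT1, did not pass the threshold. It stood at 1312 and 1221 normalised counts in vehicle and at 1310 and 1199 in octanoate. The groups overlapped and the log2 difference was -0.01 (SE 0.08, adjusted p 0.911 in limma). The 95% interval of that difference ran from -0.17 to 0.14, so a rise as large as that of SLC7A11 lies outside it while a difference of the size seen for SLC38A2 does not. Its sign changed under TMM scaling (0.00068) and without octanoate 2 (0.05) or vehicle 1 (0.04).

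SLC43A1 (ENSG00000149150.8, chromosome 11, 57484534 to 57515786, minus strand), LAT3, lets leucine and other large neutral amino acids pass without exchange. It had the largest log2 difference of the 10 genes. It stood at 953 and 843 normalised counts in vehicle and at 1273 and 1247 in octanoate. The groups did not overlap, and the mean was 40.4% higher in octanoate. In log2 the difference was 0.49 (SE 0.08, adjusted p 3.49e-05 in limma). This gene rests on between 870 and 1323 reads per library, against 49265 to 69472 for SLC7A5.

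**Figure D2:**
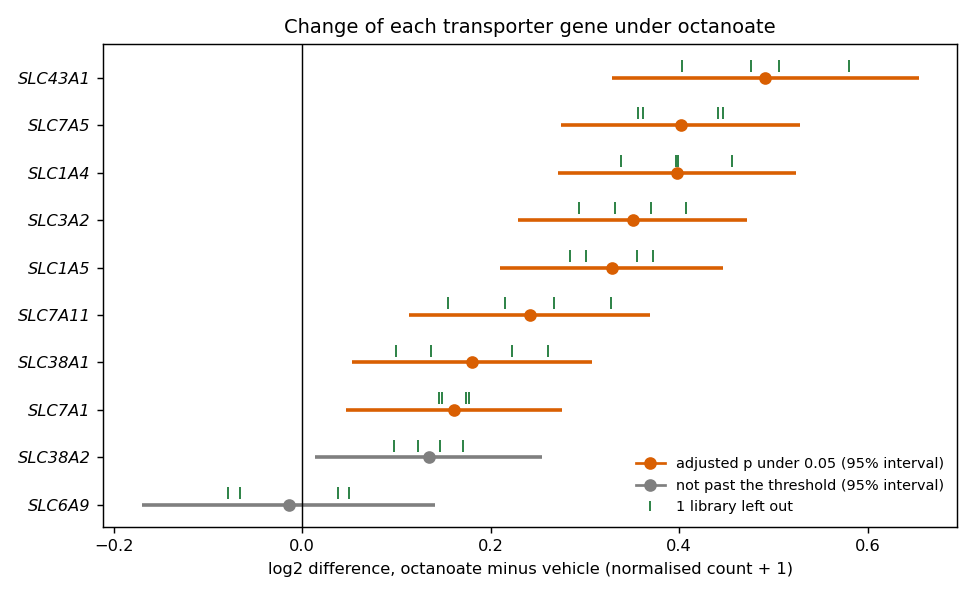
Log2 difference between octanoate and vehicle (horizontal axis) of each transporter gene, with its 95% interval from limma; orange marks an adjusted p under 0.05 and green ticks are the differences with 1 library left out. SLC43A1 is highest at 0.49, and SLC6A9 at -0.01 is the one gene whose interval spans 0.

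The rises are given here in 2 ranges by size, a split that was not tested. The limma intervals of SLC7A11 (0.11 to 0.37) and SLC1A5 (0.21 to 0.45), from different ranges, overlapped. Without octanoate 1 the log2 difference of SLC7A11 (0.328) lay above that of SLC1A5 (0.302). In every other fit with 1 library left out it lay below. SLC43A1, SLC7A5, SLC1A4, SLC3A2 and SLC1A5 had log2 differences from 0.33 to 0.49. With 1 library left out the lowest of these was 0.28, for SLC1A5. Without octanoate 1 or octanoate 2 the variance prior of limma had infinite degrees of freedom. The p-values of those fits therefore rest wholly on variance pooled over genes. SLC7A11, SLC38A1 and SLC7A1 had log2 differences from 0.16 to 0.24, and each lost its call when at least 1 library was left out. Of the 10 genes, 9 had in the authors' deposited table an adjusted p under 0.05 and all 9 were higher, where 11.4% of the genes tested here were called higher. The log2 fold changes in the authors' deposited table ran from 0.13 for SLC38A2 to 0.49 for SLC43A1, with -0.01 for SLC6A9.

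Libraries of the same group differed from each other in a way that went with base composition, in vehicle as in octanoate. SLC7A11, SLC38A2 and SLC38A1, whose longest annotated transcripts have GC contents of 35.4%, 38.1% and 41.3%, were higher in octanoate 2 than in octanoate 1 by 0.17, 0.07 and 0.16 on the log2 scale. SLC1A4, at 46.5% GC, was nearly equal in both. The other 6 genes, at 52.7% to 61.3% GC, were lower in octanoate 2, SLC6A9 by the most (a log2 difference of -0.13). Tested genes with a mean of at least 100 showed the same order: the median log2 difference between octanoate 2 and octanoate 1 was 0.015 for 2062 genes under 40% GC and -0.11 for 1682 genes at 60% GC or more. Between vehicle 2 and vehicle 1 these medians were 0.014 and -0.11, and among the 10 genes SLC38A1 (0.09) and SLC7A11 (0.05) were higher in vehicle 2 and the other 8 lower, SLC43A1 by the most (a log2 difference of -0.18). With trends on GC content and length removed from each library, the octanoate log2 difference was 0.20 for SLC7A11 (limma adjusted p 0.000615), 0.18 for SLC38A1 (0.00284) and 0.14 for SLC38A2 (0.0461), and the other 7 genes kept their side of the threshold. That fit called 6523 of 15163 genes. Its variance prior had 956 degrees of freedom, against 21.2 in the main fit, so its p-values rest almost wholly on variance pooled over genes.

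Levels of different genes were compared per kilobase of annotated exon, as means over the 2 libraries of a group. In vehicle the order was SLC7A5 (10384 ± 460 normalised counts per kilobase), SLC38A2 (5723 ± 66.01), SLC3A2 (4770 ± 266), SLC1A5 (4635 ± 200), SLC7A1 (2168 ± 34.3), SLC38A1 (2040 ± 85.3), SLC7A11 (673 ± 17.3), SLC1A4 (515 ± 29.7), SLC43A1 (254 ± 22.1) and SLC6A9 (245 ± 12.6), each SD over n = 2. The RNA of LAT1 was the most abundant of the 10 per kilobase, and that of xCT stood well below those of LAT1 and the heavy chain. The libraries of SLC3A2 and SLC1A5 overlapped in vehicle, as did those of SLC43A1 and SLC6A9. Octanoate left the order of the means the same. SLC43A1 (357 ± 5.22) stood above SLC6A9 (243 ± 15.3) in both octanoate libraries, while SLC38A2 (6284 ± 227) and SLC3A2 (6079 ± 115) overlapped there, as did SLC7A1 (2424 ± 29.8) and SLC38A1 (2314 ± 183). Exon lengths came from GENCODE 29, which may not be the annotation used for counting.

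**Figure D3:**
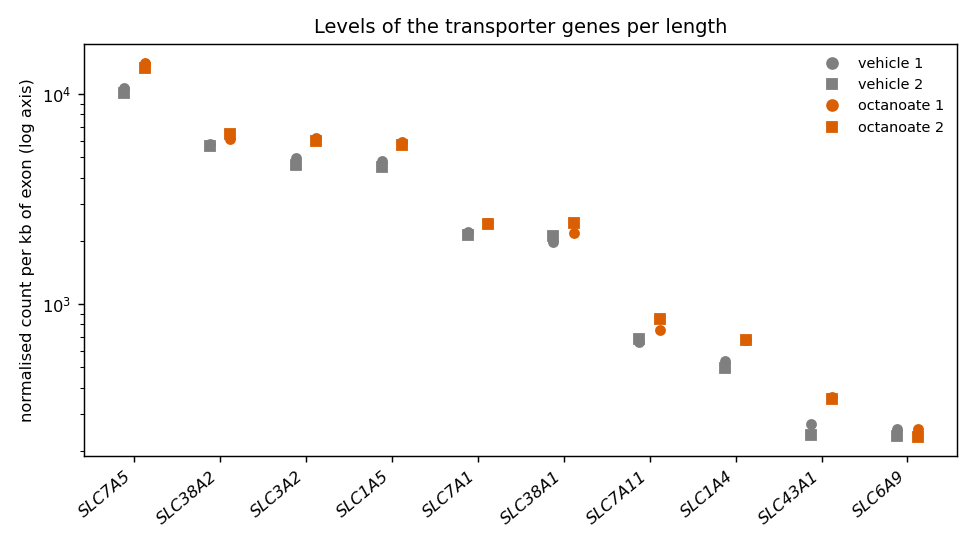
Normalised count per kilobase of annotated exon (log axis) of each transporter gene in each library; grey is vehicle and orange octanoate. SLC7A5 is highest at 10059 to 14093, and SLC43A1 and SLC6A9 are lowest.

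Some counts cannot be fully separated from neighbours, since whether counting was stranded is not given in the sources used here. In GENCODE 29, SLC7A5, SLC7A11, SLC1A5 and SLC6A9 share exonic bases with a gene of the other strand. The longest overlap was 865 bases between SLC7A11 and SLC7A11-AS1, and the next was 780 bases between SLC1A5 and AC008622.2. SLC6A9 shares 404 bases with CCDC24, which stood at 283 to 345 normalised counts.

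Other amino acid carriers of the plasma membrane were listed to set the 10 genes in their family. Of 30 such genes, 17 had a mean of at least 10, and of these 5 rose, 1 fell and 11 did not pass the test, where 16.2% of all tested genes rose and 13.7% fell. The 5 include SLC6A17, a carrier of synaptic vesicles that was listed with them. The median log2 difference of the 17 was 0.27, but 0.12 without vehicle 1 and 0.14 without octanoate 2. For the 12 genes with a mean of at least 50 it was 0.18, so it depends on genes of low count. SLC43A2, LAT4 and the closest relative of SLC43A1, went from 474 ± 16.1 to 880 ± 81.3 normalised counts (SD over 2 libraries each) and so differed by 0.89 in log2 (limma adjusted p 4.25e-08). SLC6A15, a carrier of branched-chain amino acids and proline, rose by 0.47 (limma adjusted p 5.87e-07), and the taurine carrier SLC6A6 rose by 0.35 (5.73e-05). SLC1A3, a glutamate carrier, had a log2 difference of -0.35 (adjusted p 0.00295 in limma). Its call was lost without vehicle 1, a fit that called fewer of all genes than the main fit did.

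Of 9 listed amino acid carriers of lysosomes 8 were tested: 0 were called higher and 3 lower, beside 16.2% and 13.7% of all tested genes, with a median log2 difference of -0.16. At an unadjusted p under 0.05, limma had 0 higher and 4 lower, a count for which the share of all tested genes is not given here. By adjusted p, edgeR and DESeq2 each called 0 higher and 3 lower. The 3 that fell were SLC38A7, a glutamine and asparagine carrier (-0.56, limma adjusted p 2.74e-06), CTNS, the cystine carrier cystinosin (-0.36, 0.000788), and MFSD12, which takes cysteine into melanosomes and lysosomes (-0.25, 0.00397).

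Of 17 listed regulators of transporter transcription 16 were tested, and 8 were called higher, 2 lower and 6 neither, beside 16.2% higher and 13.7% lower among all tested genes. The 2 lower calls are near that share. ATF4 went from 28967 and 27092 normalised counts in vehicle to 37801 and 36088 in octanoate, a log2 difference of 0.40 (limma adjusted p 1.23e-05), of the same size as that of SLC7A5. Its partner DDIT3 (CHOP) rose by 0.52 (9.21e-05), MYC by 0.65 (1.94e-07), CEBPB by 0.61 (2.12e-05) and ATF3 by 1.26 (1.67e-10). NFE2L2, which encodes NRF2, had a log2 difference of -0.08 (limma adjusted p 0.316). ATF5 fell by 0.54 (3.45e-05) and KEAP1, the inhibitor of NRF2, fell by 0.29 (0.000782) on the log2 scale. Levels of RNA say nothing of translation or activity of these factors.

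Of 27 listed enzymes that use the transported amino acids 25 were tested, and 9 rose, 4 fell and 12 did not pass the test, with a median log2 difference of 0.10. Among all tested genes 16.2% rose and 13.7% fell, so the 4 that fell are near the share over all genes. The largest rises were those of ASS1, which makes argininosuccinate on the way to arginine (1.61, limma adjusted p 9.96e-11), CHAC1, which breaks down glutathione (1.46, 6.75e-13), and ASNS, asparagine synthetase (1.45, 6.50e-07). GLDC, which cleaves glycine, went from 1228 ± 70.6 to 702 ± 16.2 normalised counts (SD over 2 libraries each), and its log2 difference was -0.81 (limma adjusted p 2.49e-08). SHMT1 (-0.56, limma adjusted p 2.04e-07) and BCKDHB (-0.35, 0.00158) fell too.

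Of 33 listed genes of amino acid sensing by mTORC1 32 were tested, and 6 rose, 7 fell and 19 did not pass the test, with a median log2 difference of -0.07. The 6 that rose are near the 16.2% of all tested genes that did, and 13.7% of all tested genes fell. Without vehicle 1 fewer of the listed genes were called lower, as was so for all tested genes. The list median was then -0.02. SESN2, a leucine sensor, rose by 0.57 (limma adjusted p 6.20e-07), as did the mTORC1 inhibitor DDIT4 (0.44, 3.88e-06). SESN3 had a log2 difference of -0.86 (limma adjusted p 7.29e-09), and the Ragulator subunits LAMTOR1 (-0.42, 1.38e-05) and LAMTOR3 (-0.35, 0.000424) fell. The lists were not tested against one another.

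**Figure D4:**
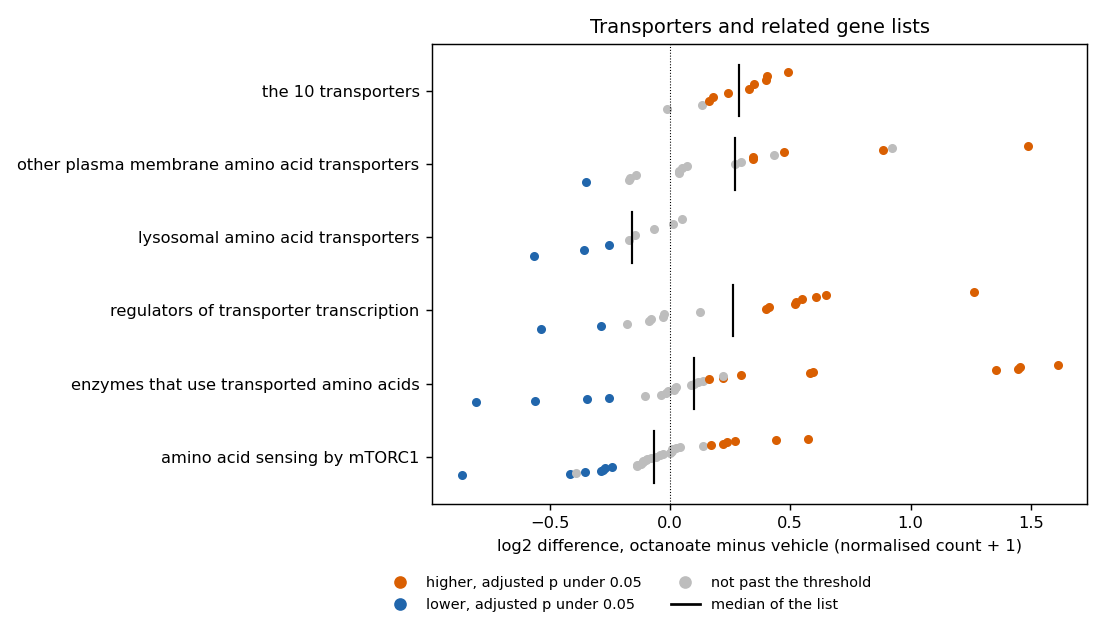
Log2 difference between octanoate and vehicle (horizontal axis) of each tested gene in the 10 transporters and 5 related lists; orange and blue points had an adjusted p under 0.05, grey points did not, and black lines are list medians. The 10 transporters have a median of 0.28 and the lysosomal carriers one of -0.16.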

How the data were processed

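RNA was sequenced from 2 vehicle and 2 octanoate libraries of A375 cells. Per the submitters' processing notes, which give no roles or order, bcl2fastq 2.17, Trim Galore, STAR 2.4, Picard, HTSeq 0.9.1, DESeq2 and hg38 were used; the annotation and the use of strand are not given in the sources used here. The deposited normalised counts are a signal, gene counts divided by 1 factor per library, and 100% of positive values were whole multiples (within 0.01) of the value of 1 read, so whole reads were recovered. The authors' deposited table holds a mean signal, log2 fold changes with standard errors, a test score, and p-values per the file headers.

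limma 3.58.1 was fitted in R 4.3.3 to log2(normalised count + 1) with an intensity trend over the 20250 genes with a mean of at least 10; treatment was the only term, and calls needed an adjusted p under 0.05. edgeR 4.0.16 (quasi-likelihood test, 6480 genes called) and DESeq2 1.42.0 (4924 called) were run on the recovered reads. The main limma fit, edgeR and DESeq2 were also run on simulated counts, and the other alternatives were not. Other alternatives were pseudocounts of 0.5 and 5, no filter or one at 50, TMM or equal totals, no intensity trend, a replicate block, each library left out, and removal of trends on GC content and length. Sequence of GENCODE 29 was found for 74.9% of tested genes and for all 10 transporters. The GC and length correction covers only the 15163 tested genes with a sequence and says nothing of the rest. Shared sequence was searched with blastn 2.17.0 (at least 95% identity over at least 100 bases). The transporters, the related lists and the markers were chosen with earlier results of these data known. All 10 transporters are named; in each other list the 3 called genes with the largest log2 differences in each direction and a mean of at least 100 are named, with ATF4, DDIT3, NFE2L2 and MYC; some genes under this rule are not reported here. SLC66A1, CASTOR1 and CASTOR2 were matched by RefSeq synonyms to the symbols PQLC2, GATSL3 and GATSL2.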

Additional observations from a re-analysis of the deposited data

How the results depend on the processing

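Pseudocounts of 0.5 and 5, a filter at 50 and the restriction to genes with an annotated sequence (the last added after seeing the data) left all 10 transporters on their side of the threshold. Under TMM scaling the log2 difference of SLC6A9 turned from -0.01 to 0.00068. SLC38A2 passed the threshold at a log2 difference of 0.13 with equal library totals and DESeq2, and at 0.14 with edgeR and with GC and length trends removed. With those trends removed, 5 lysosomal carriers were called lower, and 6523 of 15163 genes were called in all. Without the filter, 2595 of 43449 genes were called: 5 transporters, 0 other plasma membrane carriers lower, 1 regulator lower, and 3 mTORC1 genes higher and 2 lower. SLC7A11 (0.24, adjusted p 0.128), SLC7A1 (0.16, 0.105) and SLC38A1 (0.18, 0.232) lost their calls there in limma, and the prior degrees of freedom were 3.45 against 21.2.

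Without the intensity trend the prior degrees of freedom were 1.57, and 1625 genes were called in all. That fit called 0 transporters higher, with log2 differences unchanged by construction at 0.35 for SLC3A2 (limma adjusted p 0.0785), 0.40 for SLC7A5 (0.0650), 0.24 for SLC7A11 (0.181), 0.16 for SLC7A1 (0.183), 0.40 for SLC1A4 (0.0650), 0.33 for SLC1A5 (0.0798), 0.18 for SLC38A1 (0.274) and 0.49 for SLC43A1 (0.0643). It called 3 other plasma membrane carriers higher and 0 lower, 1 lysosomal carrier lower, 4 regulators higher and 0 lower, 5 enzymes higher and 1 lower, and 1 mTORC1 gene higher and 1 lower.

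With a replicate block, 9 transporters were called higher, SLC38A2 among them (0.13, limma adjusted p 0.00560), with 5 lysosomal carriers and 11 mTORC1 genes lower. Calls grew over all genes too: 8376 of 20250 were called, 4307 of them higher, against 6048 and 3271 in the main fit. The prior degrees of freedom were 64.6. Deviations of same-numbered libraries correlated at 0.270 over 13482 genes, but 2 pairs do not show that the numbers pair the libraries.

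With 1 library left out, 4295 to 4757 genes were called, 5 to 7 transporters higher and 0 lower. Other plasma membrane carriers numbered 5 to 6 higher and 0 to 1 lower, lysosomal carriers 0 higher and 2 to 3 lower, regulators 8 higher and 2 lower, enzymes 7 to 9 higher and 3 lower, and mTORC1 genes 4 to 5 higher and 3 to 6 lower. Log2 differences ranged from 0.29 to 0.41 for SLC3A2, 0.36 to 0.45 for SLC7A5, 0.16 to 0.33 for SLC7A11, 0.14 to 0.18 for SLC7A1, 0.34 to 0.46 for SLC1A4, 0.28 to 0.37 for SLC1A5, 0.10 to 0.26 for SLC38A1, 0.10 to 0.17 for SLC38A2, -0.079 to 0.050 for SLC6A9 and 0.40 to 0.58 for SLC43A1. Log2 ratio differences ranged from 0.03 to 0.07 for SLC7A5 to SLC3A2, -0.22 to -0.0039 for SLC7A11 to SLC3A2, -0.0089 to 0.10 for SLC38A1 to SLC38A2 and 0.04 to 0.10 for SLC1A4 to SLC1A5. Each transporter rests on 870 to 69472 reads per library, so counting error is largest for SLC43A1 and SLC6A9. The causes of the lost calls were not tested.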

Other observations

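Some related genes lay outside the naming rule and were picked after their values were seen. SLC6A17, a neutral amino acid carrier of synaptic vesicles, stood at 37.3 and 39.7 normalised counts in vehicle and at 119 and 101 in octanoate, a log2 difference of 1.49 (limma adjusted p 5.66e-06). SLC7A2, the cationic carrier related to SLC7A1, stood at 1771 and 1694 in vehicle and at 2237 and 2165 in octanoate, a log2 difference of 0.35 (limma adjusted p 0.000285) beside 0.16 for SLC7A1. ODC1, which makes putrescine from the ornithine that arginine yields, stood at 6353 and 5768 in vehicle and at 15747 and 15250 in octanoate. GLUL, glutamine synthetase, stood at 1624 and 1617 in vehicle and at 2424 and 2471 in octanoate.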
